A study of Mus musculus with 24 samples.

Results

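miR-221-3p and miR-222-3p, the mature 3p products of 2 neighbouring miRNA genes on the mouse X chromosome, were followed in exosomes from mouse serum. They were taken by name, as the entries mmu-miR-221-3p and mmu-miR-222-3p of the array, and are 2 of the 1881 miRNAs it measures.

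A miRNA is a short RNA that guides an Argonaute protein to messenger RNAs, mainly through its seed, and lowers their translation or stability. miR-221 and miR-222 are transcribed together and share a seed, so they share many targets, among them the cell cycle inhibitor Cdkn1b (p27) and the receptor Kit. They are well known in endothelial and vascular smooth muscle cells, and in liver they have been linked to hepatocyte proliferation and to liver cancer. Exosomes are small vesicles that cells release and that carry miRNA in blood.

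The mature sequences are shown because the members differ only after the seed, and that part is where the array's probes tell them apart. Capitals mark the seed, and both are written 5′ to 3′ as RefSeq gives them for GRCm38.p6.
miR-221-3p: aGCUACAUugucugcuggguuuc
miR-222-3p: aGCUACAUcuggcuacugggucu
Both are 23 bases long. Their first 8 bases are the same, and 11 of the 23 positions hold the same base in both. Of the 1679 mature mouse miRNAs in the RefSeq table, 3 hold this seed, and the other one, miR-1928, is also on the array. It was well above background on 0 of 24 arrays, so of the 3 the members alone were detected. The table holds 1608 of the 1881 array names, and the seeds of the rest were not read.

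The hairpins they are cut from lie on the minus strand of the X chromosome, Mir221 at chrX:19146294-19146388 and Mir222 at chrX:19146893-19146971, with 504 bases between them. They are shown to place the measured arm, which is in capitals.
Mir221: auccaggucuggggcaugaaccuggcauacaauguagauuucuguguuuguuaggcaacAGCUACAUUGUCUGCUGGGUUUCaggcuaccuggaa
Mir222: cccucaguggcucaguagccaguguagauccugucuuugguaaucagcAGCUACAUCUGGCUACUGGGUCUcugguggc
In both hairpins the measured arm is the 3p arm. The opposite arms, miR-221-5p and miR-222-5p, have probes on the array and were well above background on 0 of 24 arrays. The closest other genes in the RefSeq table were the lncRNA gene Gm14636, which starts 9500 bases beyond Mir222, and the pseudogene Gm5383 on the Mir221 side.

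Each member was measured by 2 probes with 15 spots each. The brighter probe, which stands for the member in all values below, was the following, with capitals for the bases that pair with the miRNA.
miR-221-3p probe: GAAACCCAGCAGACAATGTA
miR-222-3p probe: ACCCAGTAGCCAGA
The first pairs with bases 4 to 23 of miR-221-3p and the second with bases 8 to 21 of miR-222-3p. Each probe has an exact target in 1 mature miRNA of the table, so neither probe matches the other member in full. The probes differ in length, so which member is the more abundant cannot be read from their signals, and their difference on an array is used only to compare groups.

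The mice were BALB/c males that received either vehicle or toosendanin (TSN), a plant triterpenoid known to injure the liver at high doses. TSN was given at 80 mg/kg, and serum was taken 1 day after the last of 3, 9 or 21 days of dosing. This gave 6 groups of 4 arrays each, control and TSN at each time, and n = 4 per group holds for every value below. The age of the mice, any genetic change and the nature of the vehicle are not in the labels, which also do not say whether a sample was 1 mouse or a pool, and p-values cover no more than the spread among the deposited samples.

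The arrays of the arms differed in brightness. The 75th percentile of the signal, over the 261 probes that every array detected well above background, was 73.5 to 609 on control arrays and 737 to 1748 on TSN arrays. The labelling spike-ins, added in the laboratory, read 209 to 765 on control arrays and 1104 to 1670 on TSN arrays, and 184 to 351 against 379 to 471 miRNAs were well above background. Control and TSN arrays never shared a slide or a scan date, and the arm cannot be told apart from the slide or the scan date. Levels below are log2 of a member's signal over its array's 75th percentile, so a negative level lies under that percentile, and a lower level means a smaller part of the array's signal rather than a lower signal.

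Both members were well above background on 24 of 24 arrays, with no saturated spot. After outlier spots were left out, 13 to 15 spots of miR-221-3p and 12 to 15 of miR-222-3p remained on an array. Their coefficient of variation within an array had a median of 6.03% for miR-221-3p and 7.97% for miR-222-3p. It reached 16.7% and 24.8%, each on a control array. Both members therefore had measured values, not bounds, in every sample, with less precision on the dimmest control arrays.

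miR-222-3p was lower in TSN than in control serum exosomes on all 3 days, 2.34-fold at day 3, 3.44-fold at day 9 and 3.78-fold at day 21, relative to the array's 75th percentile. miR-221-3p was 1.87-fold lower at day 9 and 2.81-fold lower at day 21, and at day 3 its difference of 1.35-fold lower did not pass the test. These directions depend on the scaling. Without any scaling, the signals of both members were higher in TSN on all 3 days. With the 75th percentile taken over all probes, miR-221-3p was higher in TSN at days 3 and 9 (0.28 and 0.49, limma adjusted p = 0.433 and 0.153), and with spike-in scaling also (0.66 and 0.84, limma adjusted p = 0.0567 and 0.0171). Under these 2 scalings miR-222-3p stayed lower at days 3 and 9 but did not pass (limma adjusted p of 0.131 to 0.916).

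In the control samples of day 3, miR-222-3p had levels of -3.03, -2.47, -3.04 and -3.10, and in the TSN samples of day 3 levels of -4.29, -4.15, -3.76 and -4.34. At day 9 the control levels were -1.91, -2.33, -1.94 and -2.13 and the TSN levels -3.75, -3.98, -3.95 and -3.76. At day 21 they were -2.33, -2.23, -2.57 and -1.99 in control and -4.18, -3.93, -4.42 and -4.27 in TSN. Every TSN sample was below every control sample, on each day and also across days, since the highest TSN level (-3.75) lay under the lowest control level (-3.10). Of the 444 miRNAs tested, 37 (8.33%) had all 12 TSN arrays below all 12 control arrays. This complete separation was therefore not restricted to miR-222-3p. How common it was cannot be read from this share. Only 152 of the 444, both members among them, were well above background on every array. A miRNA at background on control arrays could hardly lie lower in TSN, and the share among the 152 was not counted. The same limit holds for the shares of lower calls and of groups wholly lower given below, and for places by size of change among the 444.

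The mean level of miR-222-3p was -2.91 ± 0.30 (SD) in control and -4.14 ± 0.26 in TSN at day 3, a change of -1.23 (SE 0.157, limma adjusted p = 2.17e-06). At day 9 the means were -2.08 ± 0.19 and -3.86 ± 0.12, a change of -1.78 (SE 0.157, limma adjusted p = 1.3e-08). At day 21 they were -2.28 ± 0.24 and -4.20 ± 0.21, a change of -1.92 (SE 0.157, limma adjusted p = 1.47e-08). All 3 changes passed the threshold of 0.05. In the same comparisons 18.2%, 34.2% and 21.6% of all tested miRNAs were called lower, so a lower call by itself was frequent. By size, 42, 36 and 3 of the 444 had a lower change at days 3, 9 and 21. The change of miR-222-3p itself was similar at days 9 and 21 (-1.78 and -1.92), so this place also depends on how far the other miRNAs changed.

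The levels of miR-221-3p at day 3 were -2.82, -2.54, -2.84 and -2.71 in control and -3.28, -3.68, -2.55 and -3.14 in TSN. At day 9 they were -2.09, -2.22, -2.26 and -2.31 in control and -3.13, -3.05, -3.16 and -3.14 in TSN. At day 21 they were -2.03, -1.71, -2.24 and -1.59 in control and -3.28, -3.07, -3.59 and -3.59 in TSN. The arms did not overlap at days 9 and 21, and at day 3 they overlapped through the third TSN sample, which lay among the controls. Groups in which TSN lay wholly below control made up 16.4%, 26.6% and 17.6% of the tested miRNAs at days 3, 9 and 21.

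The change of miR-221-3p at day 3 was -0.43 (SE 0.179, 95% interval -0.81 to -0.06, limma adjusted p = 0.0533), from a mean of -2.73 ± 0.14 in control to -3.16 ± 0.47 in TSN. Without the third TSN sample of day 3 it was -0.64 (limma adjusted p = 0.00201). At day 9 the mean was -2.22 ± 0.09 in control and -3.12 ± 0.05 in TSN, a change of -0.90 (limma adjusted p = 0.000237). At day 21 it was -1.89 ± 0.30 against -3.38 ± 0.26, a change of -1.49 (limma adjusted p = 1.64e-06). Both of these passed the threshold, and 14 of the 444 tested miRNAs had a lower change at day 21, against 92 at day 9.

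**Figure D1:**
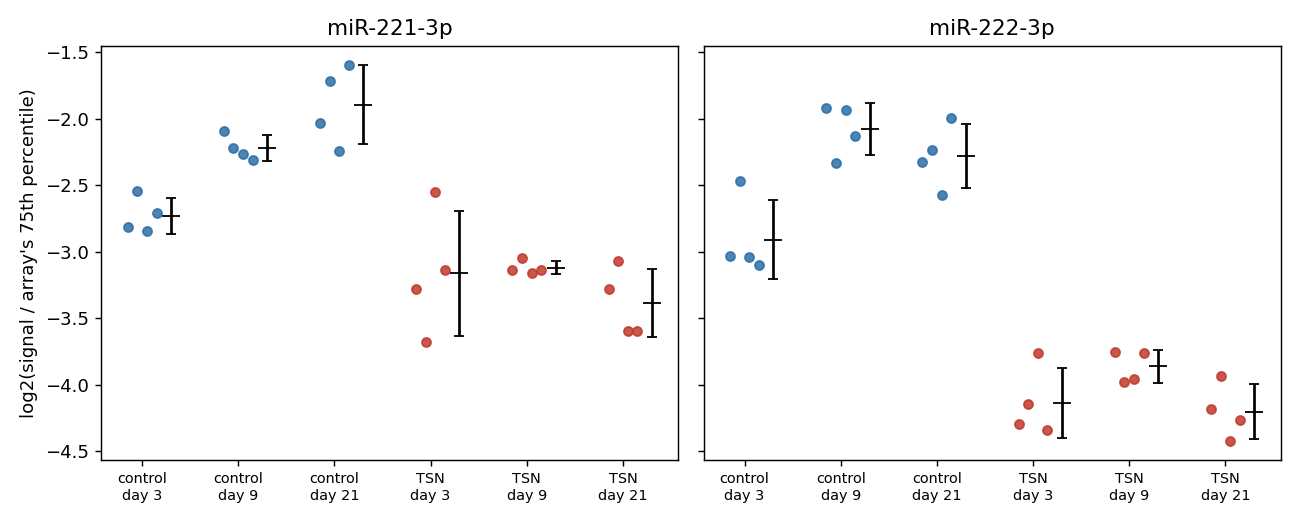
Scaled level of each member (log2 of the signal over the array's 75th percentile) on each of the 24 arrays, control in blue and TSN in red, with the group mean and SD (n = 4) as a black bar beside the points. The TSN points of miR-222-3p all lie below its control points, while for miR-221-3p the third TSN sample of day 3 (-2.55) lies among the controls; without scaling both members read higher in TSN, and with all-probe or spike-in scaling miR-221-3p did so at days 3 and 9.

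**Figure D2:**
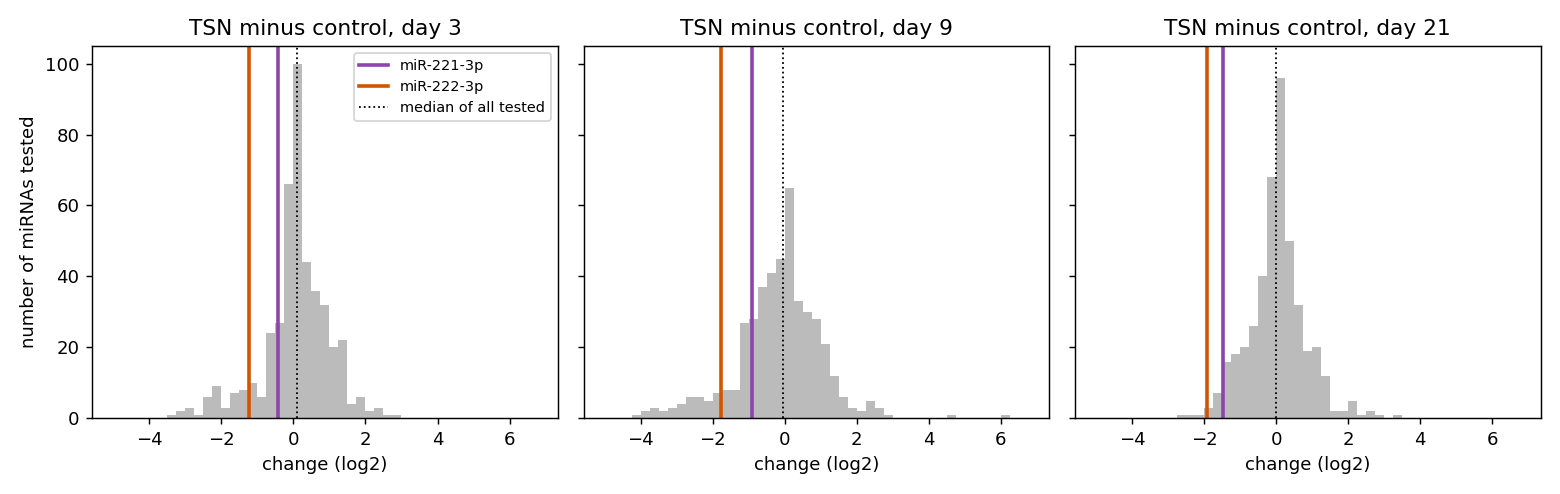
Number of tested miRNAs by their TSN minus control change of the scaled level (log2) at days 3, 9 and 21, with lines at miR-221-3p, miR-222-3p and the median of the 444. The median lies close to 0 (0.10, -0.04 and 0.01), and both members lie below it on each day; with no scaling or with normexp background correction, miR-221-3p lies above the median at days 3 and 9.

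The second, shorter probe of each member moved the same way. For miR-221-3p it was well above background on 22 of 24 arrays, and its changes were -0.43, -0.74 and -1.32 at days 3, 9 and 21. For miR-222-3p it was well above background on 23 arrays, with changes of -1.12, -1.62 and -1.76. The authors' deposited values gave the same picture over all days: miR-222-3p lay between 5.66 and 6.28 on the TSN arrays and between 6.54 and 7.49 on the control arrays, with no overlap. In those values miR-221-3p lay between 6.01 and 6.94 in TSN and between 6.74 and 7.69 in control, an overlap.

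The signals before scaling ran the other way. The unscaled signal of miR-221-3p was 16.8 to 33.3 in control and 57.6 to 191 in TSN at day 3, 14.9 to 60.8 and 156 to 196 at day 9, and 19.9 to 129 and 111 to 180 at day 21. Taken back from the group means of the log2 signal, the TSN signals were 5.35, 6.32 and 2.09 times higher. These differences passed an exact two-sided permutation test at days 3 and 9 (p = 0.0286 each, the smallest that 4 against 4 allows, and adjusted p = 0.0429 over 6 tests), while at day 21 the arms overlapped (exact p = 0.114, adjusted p = 0.137).

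The unscaled signal of miR-222-3p was 14.5 to 26.8 in control and 41.6 to 82.4 in TSN at day 3, 16.8 to 76.2 and 90.0 to 126 at day 9, and 16.2 to 102 and 69.7 to 96.1 at day 21. Taken back in the same way, its signals were 3.09, 3.43 and 1.55 times higher in TSN. The arms were again apart at days 3 and 9 (exact permutation p = 0.0286 and adjusted p = 0.0429 at each) and overlapped at day 21 (exact p = 0.429, adjusted p = 0.429). The 75th percentile of the arrays was 7.23, 11.8 and 5.87 times higher in TSN at the same days. On each day the fold of both members was smaller than that of the percentile, and this gap is what the scaled levels report. The part of the arrays' brightness in it was not tested.

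**Figure D3:**
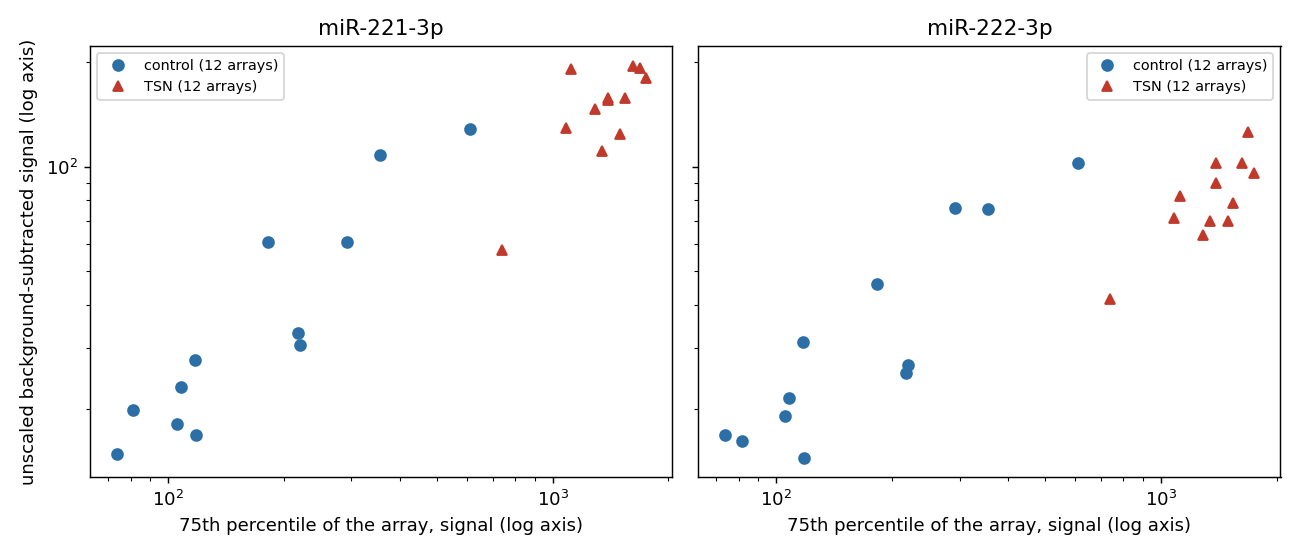
Unscaled background-subtracted signal of each member against the 75th percentile of its array, both on log axes, with one point per array (12 control arrays as circles, 12 TSN arrays as triangles). TSN arrays lie to the right (737 to 1748 against 73.5 to 609), and the brightest control arrays give miR-222-3p signals of up to 102, within the TSN range of 41.6 to 126.

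The direction of the scaled change depended on the scaling, so each member was also set against the median change of all 444 miRNAs under the same setting. This was done for the main setting and for 7 others: 3 other scalings, no scaling, normexp background correction, the software's total gene signal and the authors' values. The normexp setting adds an offset of 50 to each signal. The main, all-probe, spike-in and unscaled settings differ by a single factor per array. Subtracting the median cancels that factor, except where low values were raised to a floor, so these settings are not separate checks of a place below the median. The median itself moved from -1.56 (normexp) to 2.19 (no scaling) at day 3, from -2.08 to 2.41 at day 9 and from -1.37 to 2.06 at day 21. miR-222-3p lay below the median under all 8 settings on all 3 days, with differences from it of -1.45 to -0.24 at day 3, -1.75 to -0.13 at day 9 and -1.93 to -0.65 at day 21. Of the 444 tested miRNAs, 37 (8.33%) did so.

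miR-221-3p lay below the median under all 8 settings at day 21 (-1.50 to -0.32), as did 16.4% of the tested miRNAs. At day 3 its difference from the median ran from -0.70 to 0.32 and at day 9 from -0.86 to 0.45. At both times it was above the median with no scaling and with normexp and below it under the other 6 settings. Among the settings run, which are not all separate checks, a place below the median thus held for miR-222-3p on every day and for miR-221-3p at day 21 only.

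**Figure D4:**
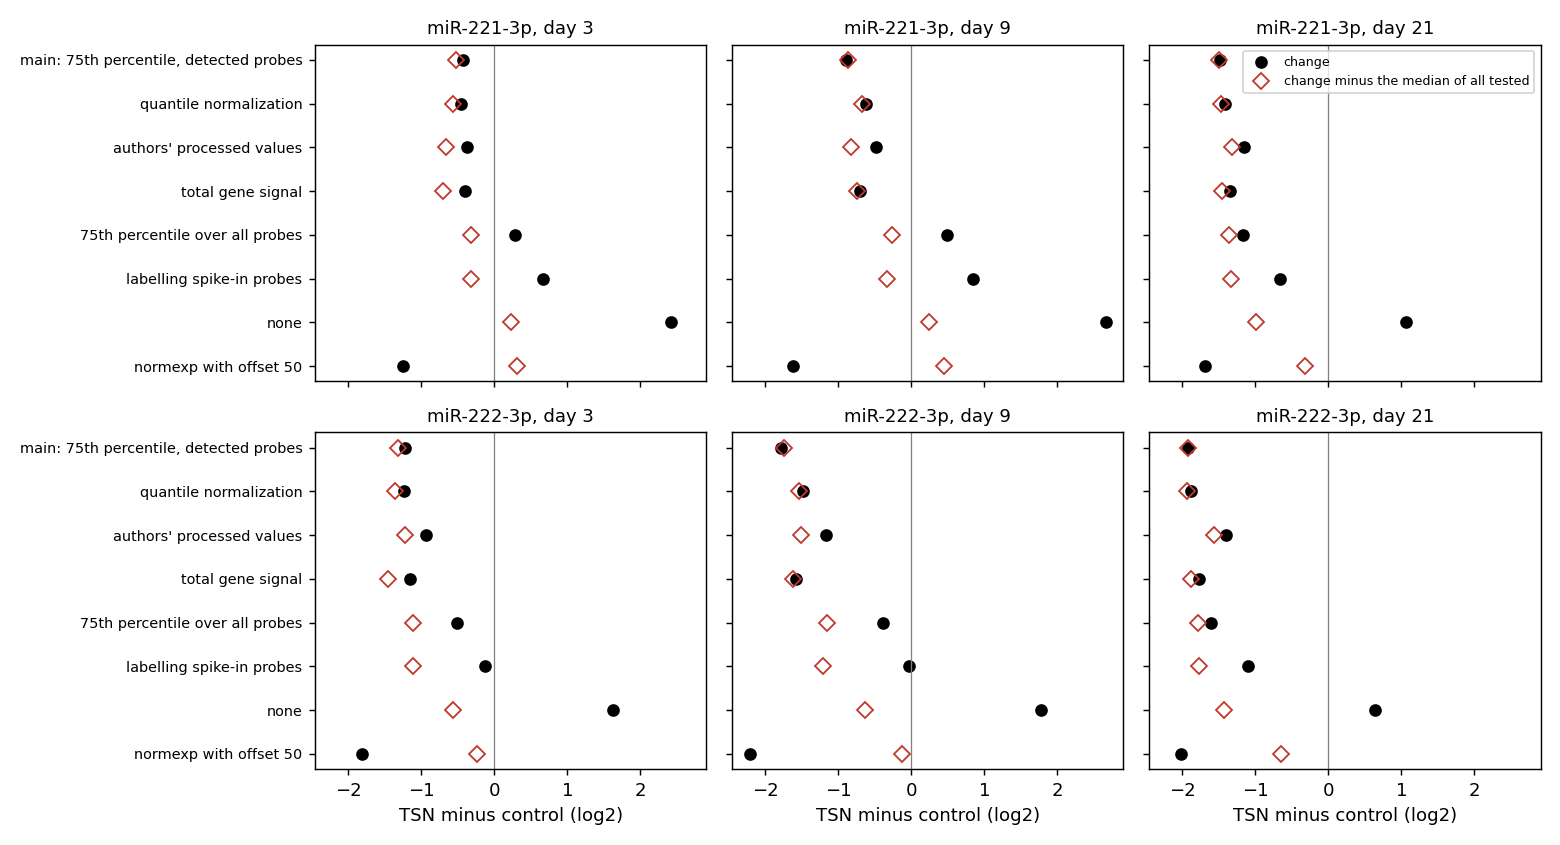
TSN minus control change (log2) of each member at each day under 8 settings, as filled points, and the same change minus the median change of all tested miRNAs, as open diamonds. The filled points cross 0 from setting to setting (miR-222-3p at day 3 from -1.81 with normexp to 1.63 with no scaling), while the diamonds of miR-222-3p stay below 0 in all 24 cases and those of miR-221-3p are above 0 with no scaling and with normexp at days 3 and 9. The diamonds of the main, all-probe, spike-in and unscaled settings differ only through the floor.

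The 2 members did not move equally. The difference of their log2 signals within an array is free of any scaling that divides an array by 1 factor. In control it was 0.22, -0.08, 0.19 and 0.39 at day 3, -0.17, 0.11, -0.33 and -0.18 at day 9, and 0.30, 0.52, 0.33 and 0.40 at day 21. In TSN it was 1.01, 0.47, 1.22 and 1.20 at day 3, 0.62, 0.93, 0.79 and 0.62 at day 9, and 0.91, 0.86, 0.83 and 0.67 at day 21. On each day every TSN array had a larger difference than every control array, that is, the ratio of the signals of miR-221-3p to miR-222-3p was higher in TSN.

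The TSN mean minus the control mean of this within-array difference was 0.79 at day 3, 0.88 at day 9 and 0.43 at day 21, or a ratio of miR-221-3p to miR-222-3p that was 1.73, 1.84 and 1.35 times higher in TSN. The exact two-sided permutation p was 0.0286 on each day, the smallest possible for 4 against 4, and 0.0286 after adjustment over the 3 days. The difference kept its sign when any 1 array was left out, with values of 0.71 to 0.96, 0.82 to 0.96 and 0.40 to 0.48. Array brightness differed between the arms in the same way as the ratio, and its part in this was not tested. The 75th percentile of the control arrays of day 21 spanned 81.4 to 609, and did not reach that of the TSN arrays of day 21, 1085 to 1748.

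**Figure D5:**
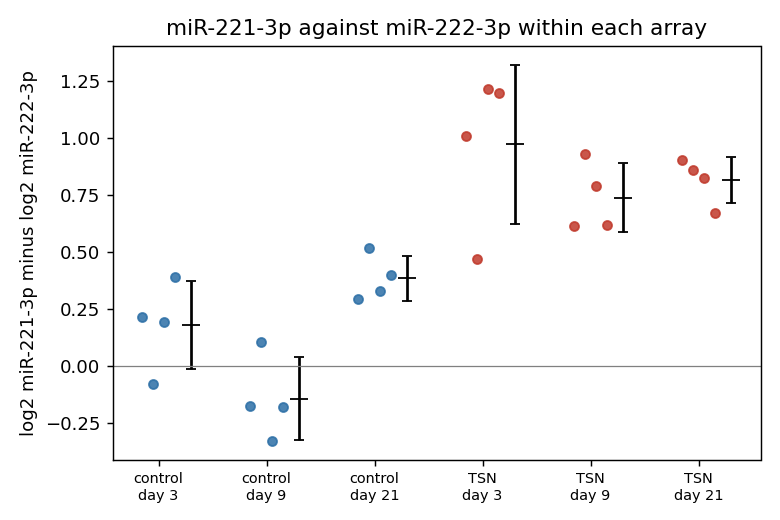
Difference of log2 signals, miR-221-3p minus miR-222-3p, on each of the 24 arrays, control in blue and TSN in red, with group means and SD (n = 4) as black bars; the value is free of any scaling by 1 factor per array. At each day all TSN points lie above all control points, with means of 0.97, 0.74 and 0.82 in TSN and 0.18, -0.14 and 0.39 in control.

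For miR-221-3p the gap in scaled level between TSN and control was wider at day 21 than at day 3. Its control level rose by 0.83 between these days (limma adjusted p = 0.00314), while its TSN level changed by -0.22 and did not pass (limma adjusted p = 0.512). Its TSN minus control change was 1.06 lower at day 21 than at day 3 on the log2 scale (limma interaction -1.06, adjusted p = 0.0126), among the 9.01% of tested miRNAs called lower in this interaction. That call was lost in 4 of 14 alternative settings (limma adjusted p up to 0.998), among them no scaling and spike-in scaling. For miR-222-3p the interaction was -0.69 (limma adjusted p = 0.0485), a call that was lost in 11 of 14 alternative settings (limma adjusted p up to 0.998) and in 12 of 16 fits without 1 array. The other interactions did not pass: day 9 minus day 3 was -0.47 for miR-221-3p (limma adjusted p = 0.205) and -0.56 for miR-222-3p (limma adjusted p = 0.0848), and day 21 minus day 9 was -0.59 (limma adjusted p = 0.0782) and -0.14 (limma adjusted p = 0.666). The last 2 did pass in some alternative settings: in 5 of 14 for miR-221-3p, with values down to -1.66, and in 2 of 14 for miR-222-3p, down to -1.21 with all-probe scaling (limma adjusted p = 0.0271).

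Days were also compared within each arm. In control, miR-221-3p rose by 0.83 from day 3 to day 21 (limma adjusted p = 0.00314), with no overlap (11.9% of the tested miRNAs lay wholly higher), and miR-222-3p by 0.63 (limma adjusted p = 0.0077), with overlap; 16.9% of the tested miRNAs were called higher there, and these days lay on different slides. From day 3 to day 9, which shared a slide, miR-222-3p rose by 0.83 in control (limma adjusted p = 0.00252), with no overlap, and 9.46% of the tested miRNAs were called higher. miR-221-3p differed by 0.51 between the same control groups, which did not overlap (12.4% of the tested miRNAs lay wholly higher), and did not pass (limma adjusted p = 0.0627), while a fit on that slide's arrays alone gave limma adjusted p = 0.0237. In TSN no comparison of days passed for either member, with changes from -0.34 to 0.28 and limma adjusted p of 0.0862 to 0.933. The largest of them, -0.34 for miR-222-3p from day 9 to day 21, passed when only the arrays of the slide they share were fitted (limma adjusted p = 0.0491), and in 5 of 15 alternatives in all. With quantile normalization day 21 minus day 9 passed for both members (-0.56 and -0.51 for miR-222-3p and miR-221-3p, limma adjusted p = 0.007 and 0.0243). In TSN, miR-222-3p from day 3 to day 9 passed with quantile normalization and with spike-ins (0.43 and 0.70, limma adjusted p = 0.0365 and 0.0467). The rises in control concern the scaled level: with no scaling or normexp none of the 3 passed, although the sign stayed positive. The rise of miR-222-3p to day 9 lost its call in 5 of 15 alternatives. Each set of 15 holds the fit on the shared slide again as the fit of only the groups compared, since that slide held no other group.

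The order of the groups by scaled level was therefore nearly the same for both members. For miR-222-3p it was control day 9 (-2.08), control day 21 (-2.28), control day 3 (-2.91), TSN day 9 (-3.86), TSN day 3 (-4.14) and TSN day 21 (-4.20). Control days 9 and 21 overlapped, as did the 3 TSN groups, and control day 3 was apart from TSN day 9. For miR-221-3p it was control day 21 (-1.89), control day 9 (-2.22), control day 3 (-2.73), TSN day 9 (-3.12), TSN day 3 (-3.16) and TSN day 21 (-3.38). The TSN groups of miR-221-3p overlapped with each other, and only the third TSN sample of day 3 reached the control range.

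The miRNAs with the most similar profiles were sought among the 151 others well above background on all 24 arrays, by the root mean square difference over the 24 arrays after each was centred on its own mean. For miR-221-3p these were miR-27a-3p (0.170), miR-19b-3p (0.248), miR-223-3p (0.278), miR-19a-3p (0.279) and miR-140-5p (0.327), in log2 units. For miR-222-3p they were miR-140-5p (0.249), miR-22-3p (0.325), miR-27a-3p (0.422), miR-221-3p itself (0.425) and miR-3067-3p (0.455). miR-222-3p ranked 10 on the list of miR-221-3p, so 9 other miRNAs followed miR-221-3p more closely than its neighbour did. All these profiles share the same arrays and the contrast between arms, and the likeness is a description.

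The scaled changes of these neighbours were not all alike. miR-27a-3p, a product of the miR-23a cluster, changed by -0.59, -1.05 and -1.49 at days 3, 9 and 21 (limma adjusted p = 0.00689, 2.96e-05 and 8.98e-07), close to the values of miR-221-3p. miR-19b-3p and miR-19a-3p of the miR-17 family of clusters changed by -0.35, -0.39 and -1.23 (limma adjusted p = 0.156, 0.0856 and 3.66e-05) and by -0.56, -0.38 and -1.43 (limma adjusted p = 0.0268, 0.107 and 1.05e-05), so miR-19b-3p passed at day 21 only. miR-3067-3p changed by -1.23, -1.60 and -0.91 (limma adjusted p = 4.18e-05, 1.34e-06 and 0.00114), and miR-223-3p, given with the blood cell lists, by 0.03 at day 3. miR-140-5p, known from cartilage, changed by -1.16, -1.18 and -1.86 (limma adjusted p = 9.68e-07, 5.96e-07 and 4.93e-09), and miR-22-3p by -1.36, -1.26 and -2.08 (limma adjusted p = 5.23e-06, 1.13e-05 and 3.92e-08). With no scaling miR-27a-3p, miR-140-5p and miR-22-3p were higher in TSN on all days. Against the median of all tested miRNAs, all 3 lay below it under all 8 settings at day 21. At days 3 and 9, miR-27a-3p was above it under 2 settings and miR-140-5p and miR-22-3p under 1.

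Other miRNAs of the tissues and processes in which the members are known were counted from lists. Of 12 miRNAs listed as vascular, not all of them particular to vessels, 10 were tested. Of these, 3, 5 and 4 were called higher in TSN at days 3, 9 and 21 and 1, 2 and 3 lower, with median changes of 0.29, 0.46 and -0.11. The 2 most abundant were miR-126a-3p and miR-130a-3p. The endothelial miR-126a-3p, which is also on the platelet list, changed by -0.06, -0.81 and -0.53 (limma adjusted p = 0.861, 0.000791 and 0.0252). miR-130a-3p changed by 0.82, 0.08 and -0.50 (limma adjusted p = 0.00168, 0.768 and 0.0477). Apart from these, the tested miRNAs of the list were well above background on 12 to 21 of 24 arrays. Those at background in control could hardly be called lower, so the count of 1 lower at day 3 is not set against miR-222-3p. At days 3, 9 and 21, 29.1%, 27.9% and 23.2% of all tested miRNAs were called higher and 18.2%, 34.2% and 21.6% lower.

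Of 12 miRNAs linked to liver regeneration and hepatocyte growth, 10 were tested, and 6, 4 and 2 were called higher and 0, 2 and 1 lower at days 3, 9 and 21, with medians of 0.58, 0.77 and 0.05. miR-21a-5p, an abundant miRNA induced in regenerating liver, changed by 0.47, -0.54 and -0.65 (limma adjusted p = 0.0443, 0.0170 and 0.00842), and miR-20a-5p of the miR-17 cluster by 0.68, 0.75 and 0.25 (limma adjusted p = 0.00064, 0.000211 and 0.185). The list's median lay above that of all tested miRNAs under all 8 settings on all 3 days, by 0.04 to 1.36. These settings are not all separate checks, and in the main setting the difference at day 21 was 0.05. Some of the 10, such as miR-34a-5p and miR-203-3p (well above background on 11 and 14 arrays), could hardly lie lower in TSN. The list is therefore not set against miR-222-3p. Of 8 liver-enriched miRNAs, 6 were tested, with 1, 3 and 1 called higher and 0, 0 and 1 lower; miR-148a-3p changed by 1.47, 1.59 and 0.69 (limma adjusted p = 1.67e-06, 5.25e-07 and 0.00481) and miR-192-5p by 0.37, 1.41 and -0.40 (limma adjusted p = 0.609, 0.0204 and 0.587).

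Markers of blood cells, whose RNA can enter a serum sample, also moved with the arm, and their part in the members' changes was not tested. Of the 6 erythroid miRNAs, all were tested, with 1, 3 and 0 called higher and 3, 2 and 3 lower; miR-451a changed by -0.07, 0.81 and -0.16 (limma adjusted p = 0.871, 0.00555 and 0.65) and miR-486a-5p by -0.63, 1.28 and -0.48 (limma adjusted p = 0.0194, 4.29e-05 and 0.0772). Of 6 platelet miRNAs, 5 were tested, with 1, 0 and 0 called higher and 0, 2 and 3 lower, and miR-24-3p changed by 0.19, -0.31 and -0.56 (limma adjusted p = 0.408, 0.145 and 0.016). Of 7 leukocyte miRNAs, 6 were tested, with 1, 0 and 0 called higher and 2, 3 and 4 lower. The myeloid miR-223-3p, which is on the platelet and leukocyte lists and among the miRNAs most like miR-221-3p, changed by 0.03, -0.47 and -1.09 (limma adjusted p = 0.955, 0.027 and 4.71e-05), and miR-142a-3p by 0.52, -1.54 and -0.94 (limma adjusted p = 0.163, 0.000131 and 0.0129).

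Of 6 striated muscle miRNAs, 3 were tested, with 1, 3 and 0 called higher and none lower at days 3, 9 and 21. miR-133b-3p changed by 1.47, 6.17 and 0.53 (limma adjusted p = 0.0439, 3.22e-08 and 0.525) and miR-1a-3p by 0.15, 2.77 and -0.79 (limma adjusted p = 0.858, 2.15e-05 and 0.161). The 3 tested, miR-1a-3p, miR-133a-3p and miR-133b-3p, were well above background on 15, 11 and 13 of 24 arrays. A miRNA was tested if any group detected it on all of its arrays, so these could enter through a group where they were high. At background in control they could hardly be called lower, and their counts are not set against the members. The same limit holds for other listed miRNAs that were not detected on every array. Directions of the listed miRNAs hold for the scaled level: with other settings the count called higher among the 10 vascular miRNAs at day 3 ran from 1 to 10 and the count called lower from 0 to 9.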

How the data were processed

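Serum exosome miRNA was measured on 24 one-colour Agilent mouse miRNA arrays, 6 groups of 4. The deposited scanner files hold intensity that Feature Extraction 10.7.1.1, per the file headers, had background-subtracted and detrended, not scaled between arrays. The authors' deposited table was taken as log2, since it tracked the scanner values on that scale; its scaling and centring are unknown.

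Here, outlier and control spots were left out, spots of a probe averaged, each array divided by the 75th percentile of the 261 probes detected on every array, and a floor of 0.0135 set before log2. A member's brighter probe stood for it. One limma 3.58.1 fit (R 4.3.3) covered all 6 groups and the 444 miRNAs that some group detected on all of its 4 arrays, with Benjamini-Hochberg adjustment at 0.05 in each of 12 comparisons; all tests were two-sided. Called means an adjusted p under 0.05. Scripts were tested on simulated data. Unscaled signals and within-array differences were compared by exact permutation over 70 allocations.

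The 4 slides carried control days 3 and 9 together, control day 21, TSN day 3, and TSN days 9 and 21 together. Replicate numbers, which are columns on the slide, went with shared deviations in TSN against control at day 9 (r of 0.202 to 0.353 in 4 of 4 pairs). In each other of the 9 comparisons of 2 groups at least 1 pair had a negative r. Single pairs there still reached high values, up to 0.503 in control day 9 against day 3 and 0.472 in control day 21 against day 9. The number of arrays limits the precision. The miRNAs named were the members, their other arms, those sharing the seed, the 5 most alike for each member, and the 2 most abundant tested of each of 7 lists (vascular, liver regeneration, liver-enriched, erythroid, platelet, leukocyte, striated muscle). The members and lists were chosen with earlier results of these data known.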

Additional observations from a re-analysis of the deposited data

Results flagged for a closer look

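The scaled level of miR-222-3p in the second control sample of day 3 was -2.47, set apart from the other 3 control samples of that day (-3.10 to -3.03) by a gap that is large for a group of 4. Without this sample the change of miR-222-3p at day 3 remained past the threshold, as it did without each of the other 7 samples (changes of -1.35 to -1.08). The unscaled signal of miR-222-3p in the first TSN sample of day 21 was 96.1, apart from the other 3 (69.7 to 71.2). Chance sets a sample apart in this way in about 1 of 20 groups.

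The TSN minus control change differed between day 21 and day 3 in the limma fit, by an interaction of -1.06 for miR-221-3p and -0.69 for miR-222-3p. The first call was lost in 4 of 14 alternatives, and the second in 11 of 14 and in 12 of 16 fits without 1 array. No slide held both days of an arm, so day and slide cannot be told apart in either.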

How the results depend on the processing

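The miR-222-3p and miR-221-3p changes at days 3, 9 and 21 kept their calls with the mean of probes, a halved floor, stricter or no filter, only the groups compared, and miRNAs at the floor on every array left out, an alternative added after seeing the data; the unfiltered fit left them out too. With no scaling all reversed: miR-222-3p 1.63, 1.78 and 0.63, miR-221-3p 2.42, 2.66 and 1.06. With the 75th percentile over all probes, miR-222-3p was -0.51 and -0.39 at days 3 and 9, not past the threshold, and miR-221-3p 0.28 and 0.49. With spike-in scaling, miR-222-3p was -0.13 and -0.037 at days 3 and 9, not past it, and miR-221-3p 0.66, 0.84 and -0.67, of which only day 9 passed, as higher (limma adjusted p = 0.0171). The day 3 change of miR-221-3p passed with quantile normalization (-0.45), normexp (-1.25) and the authors' values (-0.37). The normexp offset of 50 is larger than the unscaled signals of miR-221-3p in control at day 3, 16.8 to 33.3. With normexp the median of all tested miRNAs was -1.56 at day 3 and miR-221-3p lay 0.32 above it, so that pass does not set it lower than the others. The cause was not tested.

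With normexp the unscaled changes were 1.22 and 1.44 for miR-221-3p and 0.664 and 0.852 for miR-222-3p at days 3 and 9, and with the total gene signal 2.08 for miR-222-3p at day 3. The within-array difference at days 9 and 21 was 0.584 and 0.326 with normexp and 0.685 and 0.252 with the authors' values.

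Leaving out 1 array gave -1.35 to -1.08, -1.87 to -1.73 and -2.02 to -1.82 for miR-222-3p and -0.64 to -0.26, -0.93 to -0.86 and -1.61 to -1.39 for miR-221-3p at days 3, 9 and 21. With the replicate number as a block, the miR-222-3p interaction of day 21 minus day 3 lost its call (-0.69, limma adjusted p = 0.067); it changed no other call of the members. The TSN comparisons of days gave -0.132 to 0.245 for miR-221-3p (day 9 minus day 3) and -0.156 to 0.0582 for miR-222-3p (day 21 minus day 3) with 1 array left out.

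Among comparisons of days, day 9 minus day 3 interactions reversed with all probes (0.119 for miR-222-3p, 0.207 for miR-221-3p), spike-ins (0.0915 and 0.179) and no scaling (0.153 and 0.241), and day 21 minus day 9 of miR-222-3p with normexp (0.189). In control, day 21 minus day 9 of miR-222-3p reversed with all probes (0.530), spike-ins (0.312) and no scaling (0.685), and of miR-221-3p with normexp (-0.0919). In TSN, day 9 minus day 3 of miR-221-3p reversed with normexp (-0.103) and without the second TSN sample of day 3. Day 21 minus day 3 reversed with no scaling (0.240 for miR-222-3p, 0.0828 for miR-221-3p) and, for miR-222-3p, with the total gene signal (0.0107), without the third TSN sample of day 3 and without that of day 21. The dimmer control arrays limit how small a level could be measured, and 4 arrays per group limit precision.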
